A study of Mus musculus with 6 samples.

Results

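Binding of the transcription factor RUNX1 was followed at 9 mouse genes for proteases of follicle rupture: Adamts1, Adamts4, Adamts5, Adamts9, Ctsl, Mmp2, Mmp19, Plat and Plau. The list holds proteases only, and their inhibitors are described at the end from a separate list. A peak was counted for a gene when its summit lay inside the RefSeq gene body (GRCm38) or within 50 kb of either end. All 9 genes were found among 21887 protein-coding genes, and 95 of the 51515 peaks of the series met the rule, or 0.184%. The peaks come from chromatin immunoprecipitation and sequencing of granulosa cells, the somatic cells around the oocyte, from 21-day-old CBA x C57BL/6 F1 mice given 5 IU of equine chorionic gonadotropin (eCG). There were 2 RUNX1 libraries labelled pre-ovulatory, at 0 h of human chorionic gonadotropin (hCG), and 2 labelled peri-ovulatory, collected 6 h after 5 IU of hCG, which followed eCG by 46 h. A pooled input per time point served as control and has no list of its own. Because every sample carries one treatment text, which ends with the 6 h collection, membership of the 0 h group was taken from the titles. Nothing states how many mice were pooled or whether replicates came from separate animals, so p-values measure only the spread between these libraries, which may be technical. The lists hold no expression values, and the cell type was not checked against marker genes.

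Rupture of the follicle at ovulation needs the breakdown of the matrix of the follicle wall and of the expanding cumulus. ADAMTS enzymes cut versican and related proteoglycans, matrix metalloproteinases cut collagens and basement membrane proteins, and the plasminogen activators encoded by Plat and Plau turn plasminogen into plasmin. The surge of luteinising hormone, for which hCG stands in, sets off this programme in granulosa cells. RUNX1 binds DNA with its partner CBFB at sites with a TGTGG core.

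RUNX1 peaks at the proteases were few at 0 h and present at nearly every gene at 6 h. At the 9 genes, 0 h replicate 1 held 1 peak and 0 h replicate 2 held 3, while 6 h replicate 1 held 36 and 6 h replicate 2 held 55. With n = 2 libraries per time point, 2 ± 1.41 (SD) peaks at 0 h stood against 45.5 ± 13.4 at 6 h, without overlap of the groups (exact permutation test, two-sided, p = 0.333, the smallest p that 2 against 2 libraries allow). Whole lists differed in the same direction, with 948 and 3135 peaks at 0 h against 18761 and 28671 at 6 h. Set against list length, the proteases took 1.05 and 0.957 of every 1000 peaks at 0 h, and 1.92 of every 1000 in each 6 h list. The exact Clopper-Pearson 95% intervals, which cover counting error only, ran from 0.0267 to 5.86 and from 0.197 to 2.79 per 1000 at 0 h. At 6 h they ran from 1.34 to 2.66 and from 1.45 to 2.50. Both 0 h intervals contain 1.92, so the difference in share, 0.913 per 1000, was within the counting error of the 0 h lists. The shares of the libraries themselves did not overlap between time points (exact permutation test, two-sided, p = 0.333, again the smallest possible). With every list held to its 948 peaks of lowest p-value, the counts were 1 and 1 at 0 h and 1 and 2 at 6 h, so the difference in number was 0.5 (exact permutation test, two-sided, p = 1). The share difference was 0.527 per 1000 in those lists and 0.394 when −log10 q had to reach 20, and in both cases the groups overlapped (exact permutation test, two-sided, p = 1).

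**Figure D1:**
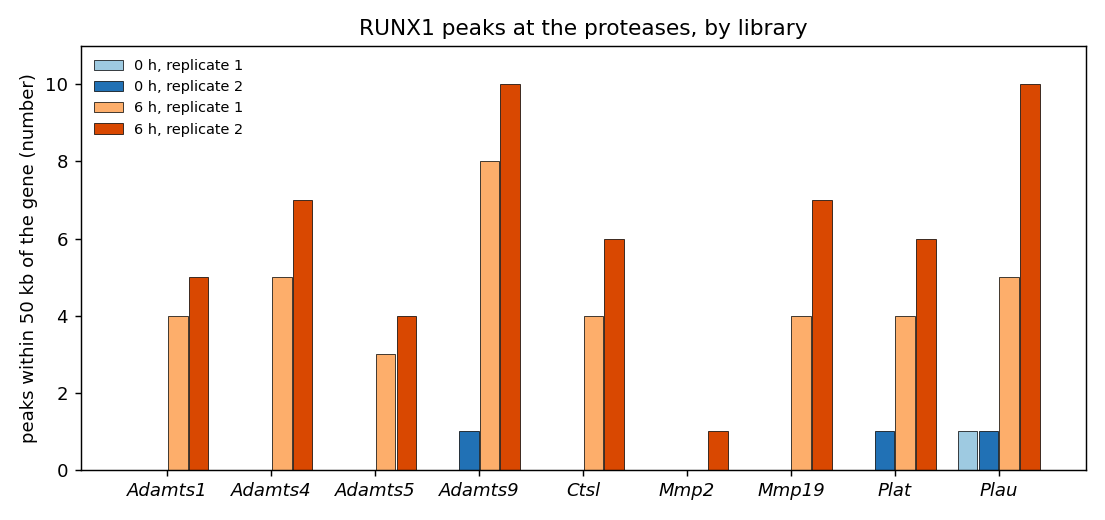
Number of RUNX1 peaks with a summit in or within 50 kb of each protease gene, 1 bar per library. At 0 h only Adamts9, Plat and Plau have a bar, of height 1, while at 6 h every gene except Mmp2 has at least 3 peaks in both libraries.

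Counted gene by gene, 8 of the 9 proteases had more peaks in both 6 h libraries than in both 0 h libraries, and the same held for 64.7% of all protein-coding genes. The reverse, with fewer peaks in both 6 h libraries, was found at 0 of 9 proteases and at 0.00457% of coding genes. A replicated region, defined as a merged interval in which peaks of replicates 1 and 2 at one time overlap, lay in the window of 8 of 9 proteases at 6 h, against 68.9% of protein-coding genes. Mmp2 was the exception. With lists of equal length the count was 1 of 9, at Plau, and the share of coding genes was not taken for those lists. At 0 h Plau alone had a replicated region, or 1 of 9, against 8.76% of protein-coding genes. A peak of at least 1 of the 0 h libraries was present at Adamts9, Plat and Plau, or 3 of 9, against 28.7% of genes. Closer to the genes, 7 of 9 had a replicated 6 h region within 10 kb (background 53.2%), and Plau and Mmp2 did not. Inside the gene body itself the count was 4 of 9, for Adamts1, Adamts9, Ctsl and Plat, and the background was 37.8%.

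In total 55 separate sites were found at the proteases, of which 32 were replicated at 6 h, 22 were listed only in 6 h replicate 2 and 1 only in 6 h replicate 1. Without 6 h replicate 1 the regions numbered 55, those of replicate 2 alone, and with lists of equal length 1 was replicated. Each of the 3 sites with a 0 h peak also had a 6 h peak, and the same share over all 0 h peaks was not taken. Among the replicated sites, 10 had their summit inside a protease gene, and a protease was the nearest protein-coding gene for 17. For the other 15 another coding gene was nearer, and these include the sites with the highest fold enrichment near Plau and Plat. The median gap between the summits of the 6 h replicates was 32.5 bp and the largest was 237 bp. Adamts1 and Adamts5 lie next to each other on chromosome 16, and 1 site between them falls in both windows and was counted once in the totals.

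**Figure D2:**
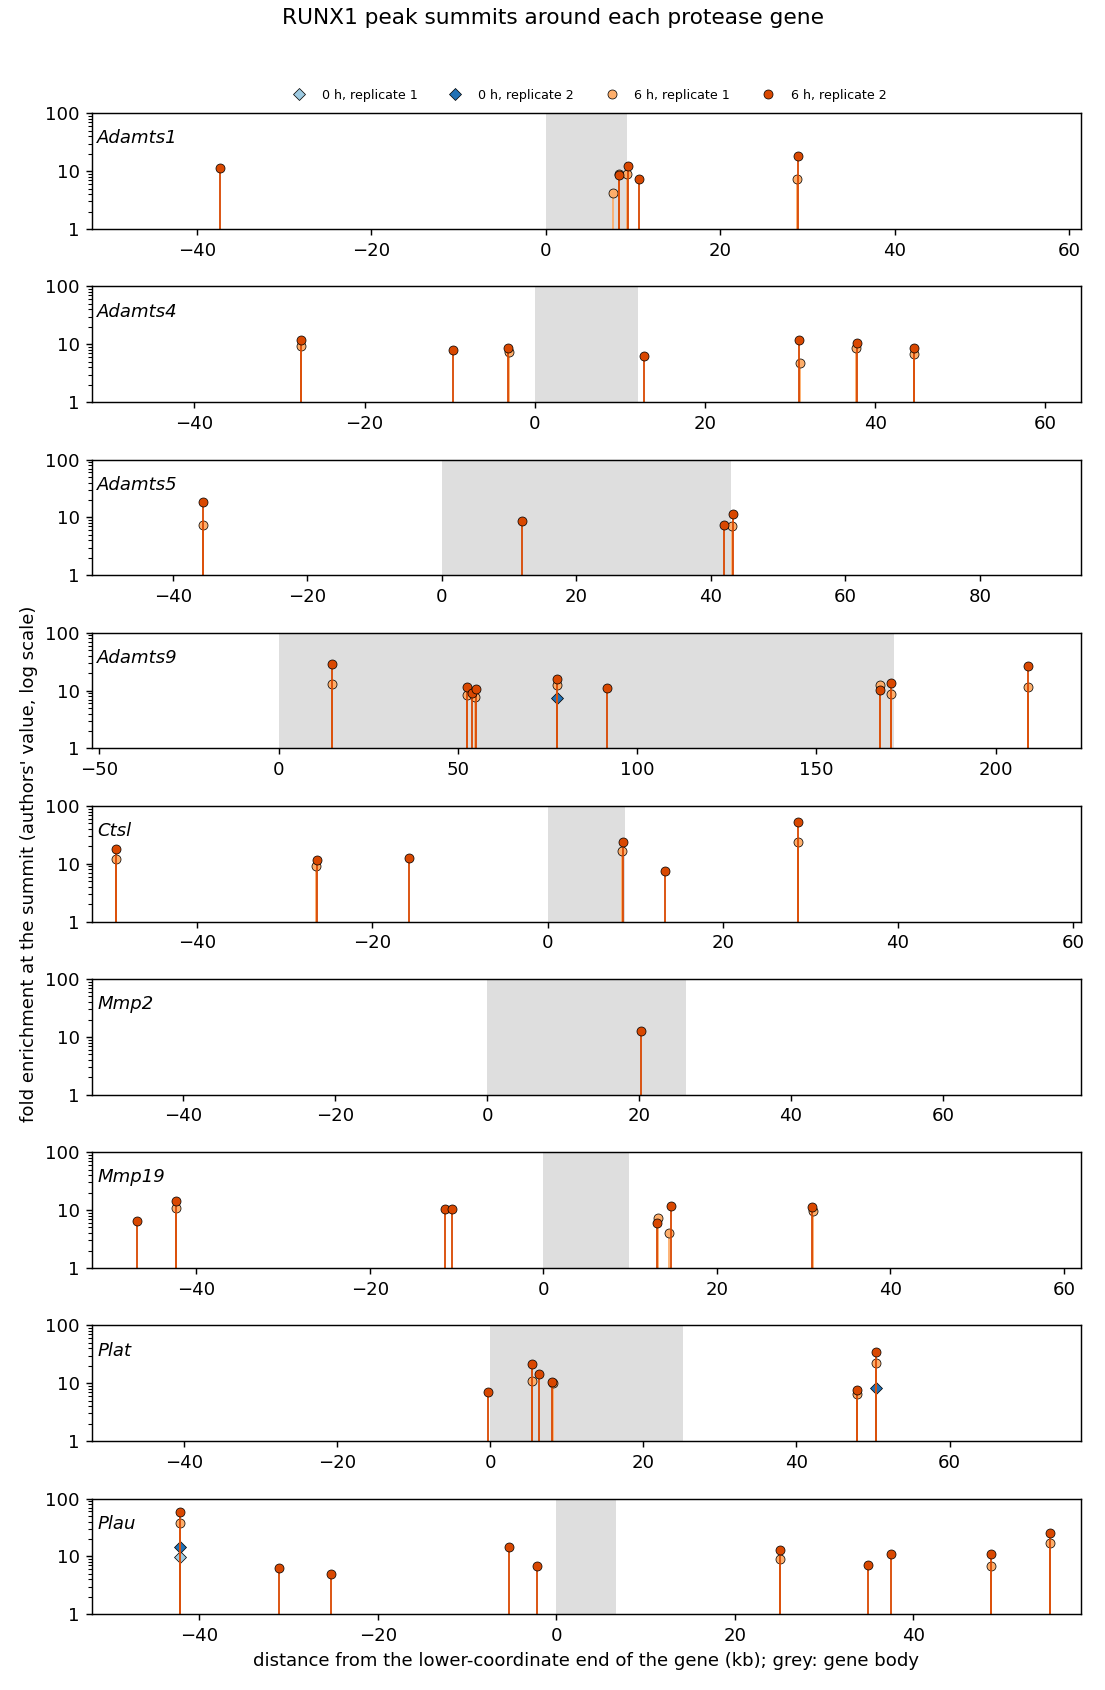
Fold enrichment at the highest summit of each site and library (vertical, log scale, authors' value) against distance from the lower-coordinate end of each gene in kb, with the gene body in grey. Circles are 6 h and diamonds 0 h libraries. The tallest site, at Plau, lies 42141 bp outside the gene and has a diamond of both 0 h libraries.

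The median protease had 4 replicated 6 h regions in its window, against 2 over all protein-coding genes, and 7 of the 9 lay above that median. Window length differs with gene length, so the count was also taken per 100 kb. It was 3.20 for the median protease and 0.969 for the median coding gene, with 8 of 9 proteases above the latter. Adamts9, the longest gene at 171752 bp, had 7 regions, and 3.30% of coding genes had more. Adamts4 had 5, which 8.68% of coding genes exceeded, but its window also holds 9 other coding genes. Ctsl, Mmp19, Plat and Plau had 4 each, Adamts1 had 3 and Adamts5 had 2.

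**Figure D3:**
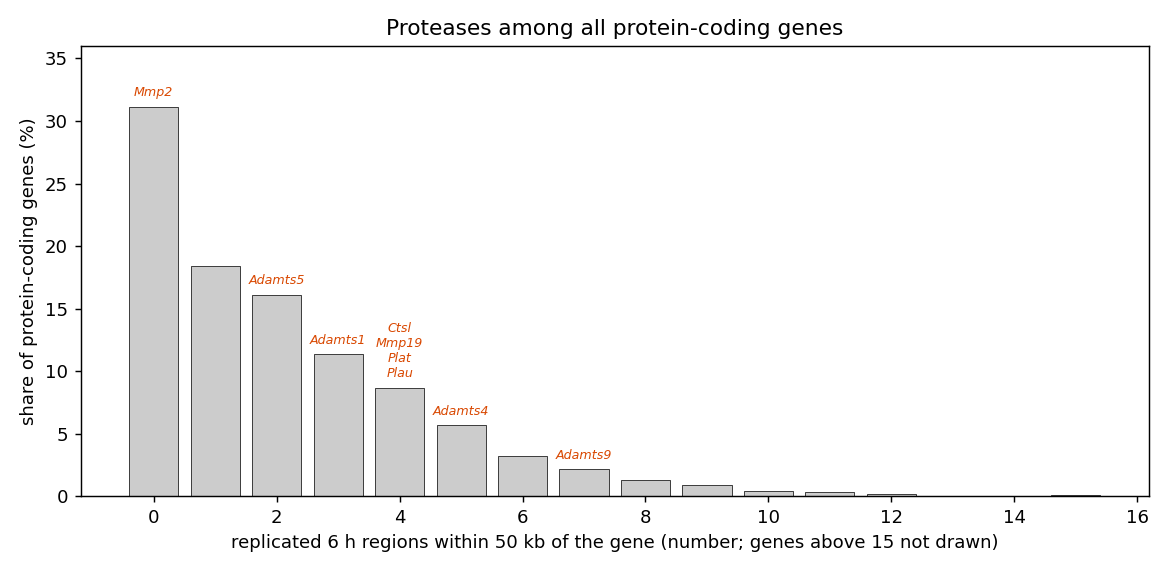
Share of the 21887 protein-coding genes (vertical, %) by the number of replicated 6 h regions within 50 kb, with the 9 proteases named above their bar. Mmp2 stands with the 31.1% of genes that have 0 regions, and Adamts9 lies farthest to the right with 7.

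Fold enrichment is given below as deposited, and where a library had more than 1 peak in a site, for the highest of them. It moves with library and input depth, so folds of different libraries are not on one scale, and for the highest sites the percentile of fold within the library's own list is given too. Where a site is called highest or top in rank, sites were ordered by their mean percentile over the 6 h lists. The number of reads piled up at the summit was recovered from each peak's fold and p-value. Against the genome-wide background of 2.77 and 2.65 reads in the 0 h libraries, a summit needed at least 18 and 17 reads to reach the p-value limit of the lists. A site without a 0 h peak may therefore still have held fewer reads than this at 0 h, or more where the local background was higher. The 29 replicated 6 h sites without a 0 h peak had 30 to 102 reads in 6 h replicate 1 (median 50) and 34 to 165 in replicate 2 (median 61).

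Sequence under the peaks is shown for the 3 proteases with an entry in the RefSeq promoter table (GRCm38.p6), because all 3 had a replicated 6 h region across the gene start. Over the whole table, 26.6% of 32851 promoters overlapped a replicated 6 h region. The 250 bases before the tabulated start are printed 5′ to 3′ on the minus strand, which carries all 3 genes, and capitals mark TGTGG or its reverse complement. The windows are chr16:85803114-85803363 for Adamts1, chr6:92943535-92943784 for Adamts9 and chr13:64370521-64370770 for Ctsl, and each lies whole inside a peak of both 6 h libraries. Those of Adamts9 and Ctsl lie inside the annotated gene body, since the tabulated start is not its outermost end.
Adamts1: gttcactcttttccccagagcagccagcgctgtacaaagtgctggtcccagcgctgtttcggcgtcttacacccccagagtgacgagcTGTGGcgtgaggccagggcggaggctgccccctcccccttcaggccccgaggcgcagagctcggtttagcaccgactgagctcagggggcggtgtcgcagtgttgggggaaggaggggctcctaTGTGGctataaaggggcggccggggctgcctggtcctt
Adamts9: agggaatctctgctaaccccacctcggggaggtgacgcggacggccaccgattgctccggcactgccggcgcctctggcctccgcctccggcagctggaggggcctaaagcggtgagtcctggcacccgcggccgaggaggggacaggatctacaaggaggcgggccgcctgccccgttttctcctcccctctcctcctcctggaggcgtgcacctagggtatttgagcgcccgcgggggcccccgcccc
Ctsl: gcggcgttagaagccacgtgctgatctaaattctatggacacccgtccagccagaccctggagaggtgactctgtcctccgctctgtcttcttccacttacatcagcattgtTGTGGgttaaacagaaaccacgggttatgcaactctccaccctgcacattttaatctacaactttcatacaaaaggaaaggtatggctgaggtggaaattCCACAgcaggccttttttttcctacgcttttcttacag
None of the 3 windows holds TGTGGT or TGCGGT, the longer RUNX motifs searched, or the AP-1 motif TGANTCA on either strand. Other RUNX-like sequences and the rest of each peak were not searched, and both Ctsl summits lie outside its window. TGTGGT stands in 14% and TGCGGT in 5.1% of all tabulated windows. At least 1 of these longer RUNX motifs stands in 18.6% of all tabulated windows of this length and in 19.3% of those under a replicated 6 h region. TGANTCA stands in 6.75% of all windows. The shorter TGTGG, which was added after the longer motifs had been searched and is contained in TGTGGT, occurs at -162 and -38 from the start of Adamts1. In Ctsl it occurs at -138 and, on the reverse strand, at -38, and in Adamts9 not at all. TGTGG stands in 49.3% of all windows and in 42.7% of those under a 6 h region.

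Adamts1 (chr16:85793827-85803113), the enzyme that cuts versican in the cumulus matrix, had 4 and 5 peaks in the 6 h libraries and 0 in both 0 h libraries. Its promoter site, at chr16:85802883-85803562, had a fold of 8.88 and 12.4 in 6 h replicates 1 and 2, with 65 and 64 reads at the summit. These values sit near the middle of the lists, at percentiles 52.9 and 60.7. The summits lay at -50 and -102 from the gene start, between the TGTGG matches printed above. A second replicated site inside the gene, at chr16:85801931-85802844, peaked 937 bp after the start, with a fold of 9.04 and 8.53. The gene's highest-ranking site lay 19550 bp before the start, at chr16:85822424-85822849 inside the lncRNA gene 4930556C24Rik, and is the one shared with the window of Adamts5. Replicates disagreed there, with a fold of 7.36 against 18.5, 30 against 75 reads, and percentiles of 34.6 and 81.9. In replicate 1 alone it ranked below the promoter site and the replicated site inside the gene.

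Adamts5 (chr16:85858157-85901125), another aggrecan- and versican-cleaving enzyme, had 3 and 4 peaks at 6 h and none at 0 h. Apart from the shared site, which lies 35494 bp below its lower end, its replicated site was at chr16:85900711-85901939. That site peaked 313 bp beyond the upper end of the gene, inside the lncRNA gene Gm46558, with a fold of 7.07 and 11.4 at percentiles 30.9 and 54.6. Inside the gene, 2 further sites were listed only in 6 h replicate 2, with a fold of 8.62 and 7.31. The gene table gives no strand, so which end is the start was not resolved for genes without a promoter entry.

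Adamts4 (chr1:171250129-171262267), an aggrecanase, had 5 and 7 peaks at 6 h and none at 0 h, but no site lay inside the gene. Its 5 replicated sites had a coding gene other than Adamts4 nearest in every case. Top in rank was a site at chr1:171222449-171222788 inside Apoa2, 27485 bp from Adamts4, with a fold of 9.36 and 11.6 and percentiles of 57.4 and 56.3. A site 645 bp beyond the upper end of Adamts4, listed in 6 h replicate 2 only, had a fold of 6.20 at percentile 8.77.

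Adamts9 (chr6:92772699-92944450), which also cuts versican, had 8 and 10 peaks at 6 h, 0 and 1 at 0 h, and most of its sites inside the gene body. A site 155855 bp after the tabulated start, at chr6:92787445-92787941, ranked highest, with a fold of 13.2 and 28.4, 59 and 105 reads, and percentiles of 79.4 and 93.0. Outside the gene, 37244 bp beyond its upper end, a site at chr6:92981322-92981895 had a fold of 11.3 and 26.8. Both also fall within lncRNA genes, Gm52913 and 9530026P05Rik. The promoter site, at chr6:92942937-92943908, had its summits at -73 and -90, a fold of 8.76 and 13.5, and 50 and 71 reads. The tabulated start used here is inside the annotated gene, whose upper end lies 826 bp beyond the summit of this site.

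The site of Adamts9 shared with 0 h lay deep in the gene, at chr6:92850165-92850730, 93146 bp after the start. It had 83 and 105 reads in the 6 h libraries and 27 in 0 h replicate 2, and it was not listed in 0 h replicate 1. Its fold was 12.7 and 16.1 at 6 h, at percentiles 77.2 and 76.0, and 7.44 at 0 h, at percentile 54.1. The 3 summits lay within 57 bp of each other, and the 0 h interval of 234 bp fell inside the 6 h interval of 566 bp.

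Ctsl (chr13:64361890-64370772) encodes cathepsin L, a lysosomal cysteine protease, and had 4 and 6 peaks at 6 h and none at 0 h. Its promoter site was the strongest of the 3 printed, with 6 h fold values of 16.8 and 23.9, at percentiles 88.5 and 89.7. It had 97 and 127 reads, with summits at +86 and +12 from the start, and spanned chr13:64369757-64370955. As at Adamts9, the tabulated start is inside the annotated gene, whose upper end lies 264 bp beyond the summit of replicate 2. The highest site lay 19706 bp beyond the upper end in a stretch with no gene in the table, at chr13:64390158-64390834. It had a fold of 23.7 and 53.0, 88 and 165 reads, and percentiles of 95.6 and 99.2, and neither 0 h library had a peak there. At chr13:64312102-64312829, inside Prxl2c and 49334 bp from the lower end of Ctsl, a further replicated site had a fold of 11.99 and 18.0.

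Mmp2 (chr8:92827290-92853421), encoding gelatinase A, had the fewest peaks of the proteases, with 0 in both 0 h libraries and 0 and 1 in the 6 h libraries. The single peak was at chr8:92847317-92847699, inside the gene and 5827 bp from its upper end, with a fold of 12.6 and 43 reads in 6 h replicate 2. It stood at percentile 61.7 of that list, a middle rank, and 6 h replicate 1 listed no peak there. No replicated region lay within 50 kb, as for 31.1% of coding genes.

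Mmp19 (chr10:128790910-128800827), a secreted metalloproteinase, had 4 and 7 peaks at 6 h and none at 0 h. As at Adamts4, none was inside the gene and all 4 replicated sites had another coding gene nearest. The highest in rank was in Pym1 at chr10:128747746-128748738, 42380 bp from Mmp19, with a fold of 10.8 and 14.4 and percentiles of 67.6 and 69.9. Nearest to the gene was chr10:128803840-128804287 inside Tmem198b, 3271 bp away, with a fold of 7.17 and 6.03. A site in Dnajc14 at chr10:128804609-128805771 stood at percentile 1.76 in 6 h replicate 1 and 58.3 in replicate 2, where the recovered background was 8.84 and 4.35 reads. The site near Ppox in the Adamts4 window showed a like gap, with percentiles of 4.84 and 58.0 and backgrounds of 9.64 and 6.21 reads. The part of the background in these gaps was not tested.

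Plat (chr8:22757722-22782848), the gene of tissue-type plasminogen activator, had 4 and 6 peaks at 6 h and 0 and 1 at 0 h. Of its sites inside the gene, 2 were replicated, at chr8:22762829-22763430 with a fold of 10.99 and 21.4, and at chr8:22765694-22766039 with 9.96 and 10.5. They lay 5488 and 8131 bp from the lower end of the gene, and neither had a 0 h peak. A site 297 bp below that end, at chr8:22757298-22757514, was listed in 6 h replicate 2 only, with a fold of 7.18 and 24 reads.

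The strongest site in the Plat window, and the one with a 0 h peak, lay 25233 bp beyond the upper end at chr8:22807812-22808808. The nearest coding gene is Ap3m2, 789 bp away. It held 113 and 144 reads at 6 h and 30 reads in 0 h replicate 2. Its fold was 22.7 and 35.3 at 6 h, at percentiles 95.1 and 96.3, and 8.24 at 0 h, at percentile 67.2. No peak was listed in 0 h replicate 1, and the 3 summits were within 41 bp.

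Plau (chr14:20836662-20843388), the gene of urokinase-type plasminogen activator, had the only region replicated at both time points. That site spans chr14:20793051-20795182, lies inside the lncRNA gene Gm30108, and is 42141 bp from Plau and 364 bp from Camk2g. Summit reads numbered 44 in 0 h replicate 1 and 59 in 0 h replicate 2, against 186 in 6 h replicate 1 and 235 in 6 h replicate 2. Both 6 h values were above both 0 h values. The recovered backgrounds were 3.61 and 3.21 reads at 0 h and 4.02 and 2.99 at 6 h, and the part of library depth in the difference was not tested. Fold was 9.76 and 14.3 at 0 h, at percentiles 77.3 and 95.5, and 37.3 and 59.1 at 6 h, at percentiles 99.3 and 99.6. The highest summits of the 4 libraries lay within 47 bp, in a 0 h interval of 487 bp and a merged 6 h interval of 2132 bp. Replicate 1 at 6 h split this interval into 2 peaks, and the lower one, with its summit at position 20793339, had a fold of 10.9 and 51 reads. This was also the site present in all 4 lists when each was held to 948 peaks, and the Ctsl site of highest fold was the other one, in 6 h replicate 2 only.

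Plau itself held no summit inside its gene body, and no replicated site lay within 10 kb. Of its 10 sites 6 were listed only in 6 h replicate 2, including those 2226 and 5316 bp below the lower end, with a fold of 6.77 and 14.4. Among the other replicated sites, chr14:20891570-20892500, 48610 bp beyond the upper end in the lncRNA gene Gm30212, reached 17.2 and 25.8 in fold, percentiles 89.0 and 91.2. At chr14:20861390-20861990, 18376 bp beyond that end, the fold was lower at 8.998 and 12.8 although 102 and 123 reads were piled up. The background there was 10.5 and 8.69 reads.

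**Figure D4:**
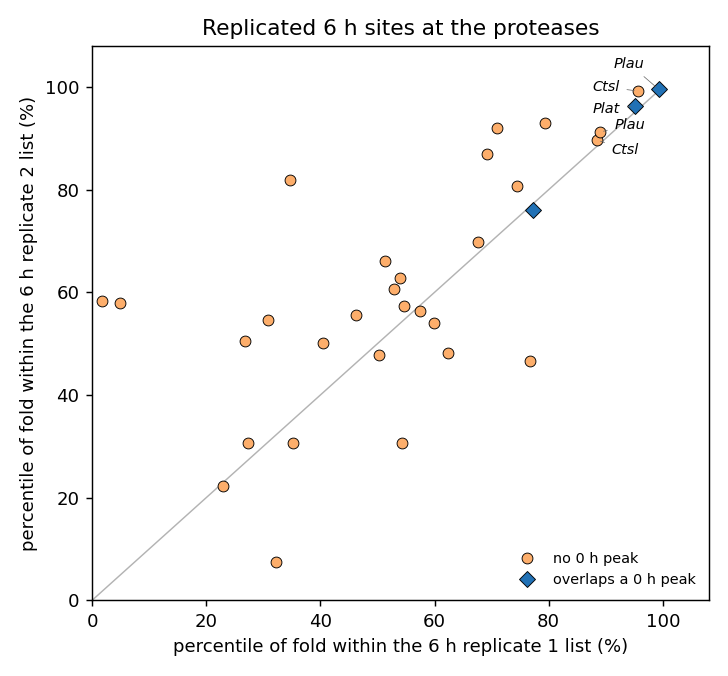
Percentile of fold within 6 h replicate 1 (horizontal, %) and replicate 2 (vertical, %) for the 32 replicated sites at the proteases, with sites above percentile 80 in both lists named by gene. The line marks equal percentiles. The 3 sites with a 0 h peak (diamonds) are at percentiles from 76.0 to 99.6, and the other points spread from 1.76 to 99.2.

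The protease sites as a set ranked near the middle of the 6 h lists. Their median percentile of fold was 54.5 in replicate 1 and 58.2 in replicate 2, against 53.0 and 67.9 over all 17190 replicated regions. Of the 32 sites, 3 stood above percentile 90 in both lists, against 9.59% of all regions, namely the sites in the windows of Plau, Plat and Ctsl with the highest fold. Of the protease sites with a replicate 2 peak, 59.3% had a replicate 1 peak, against 60.5% of all its sites. Sites listed only in replicate 2 had a median fold of 8.33, against 8.30 over all peaks of that kind.

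Of the 32 replicated 6 h sites, 3 overlapped a 0 h peak, or 9.38% (exact Clopper-Pearson 95% interval 1.98 to 25.02), and 16.5% of all replicated 6 h regions did. The interval contains the share over all regions. Without 0 h replicate 2 the Plau site alone remained, or 3.13%, and when −log10 q had to reach 20 the share was 4%. With an overlap of 50% of both intervals required it was 0%, and with lists of equal length it was 100%, or 1 of 1. The Plau site was the 1 of 32 that overlapped a replicated 0 h region, and 4.6% of all regions did. All 3 lay far from the ends of their protease, 25233 bp outside Plat, 42141 bp outside Plau and 77689 bp inside Adamts9. None of the 3 promoter sites had a 0 h peak, and the share of all promoter sites with one was not taken. Asking for the summit to be in, or nearest to, a protease rather than another coding gene left 17 replicated sites at 6 proteases, 1 of which, at Adamts9, had a 0 h peak.

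For the member with the highest 6 h fold, Plau, the coding genes most alike in the highest percentile per list were sought over the 4 libraries by Euclidean distance, leaving out genes that share its peaks. They were Fosl2 at a distance of 2.21 and Fkbp5 and its neighbour Armc12, which have the same values, at 2.29. Their highest percentiles were 76.8, 95.7, 97.6 and 98.2 for Fosl2 and 79.5, 95.1, 99.6 and 99.5 for Fkbp5 and Armc12, in the order 0 h replicates 1 and 2 and 6 h replicates 1 and 2.

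Genes that act with the proteases were taken from a further list of 45, counted by the same rule. At 6 h 33 of them had a replicated region, or 73.3%, beside the 68.9% of all coding genes, and at 0 h 5 had one, beside 8.76%. Among protease inhibitors 7 of 12 had a 6 h region, or 58.3%, beside the same 68.9% of coding genes. They include Timp1, Timp2, Timp3 and Reck, while Timp4, A2m, Cst3, Serpina5 and Serpinb2 had no replicated 6 h region. Timp1, a tissue inhibitor of metalloproteinases, had the highest in rank, inside the gene and the overlapping Syn1 at chrX:20872695-20873429, with a fold of 26.6 and 45.6 and percentiles of 97.0 and 98.4, and no 0 h peak. Timp2 followed with a site at chr11:118289646-118290761, 10660 bp from the gene, at percentiles 97.1 and 97.6 of the 6 h lists. It was the only inhibitor with a replicated 0 h region, where the site stood at percentiles 42.3 and 82.3.

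Among 19 other proteases 13 had a replicated 6 h region, or 68.4%, near the 68.9% of all coding genes. Adam8 and Adam17, both membrane-bound sheddases, had the highest-ranking sites. Those sites lay in neighbouring genes, Tubgcp2 and Cpsf3, with a fold of 21.6 and 32.9 for Adam8 and 16.3 and 32.5 for Adam17. Ctsb, another cathepsin, was the only 1 of the 19 with a replicated 0 h region, beside 8.76% of all coding genes. Its top 6 h site, in Fdft1 and 18902 bp away, stood at percentiles 98.7 and 99.7 of the 0 h lists and 86.5 and 90.7 of the 6 h lists.

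All 6 receptors and cofactors had a replicated 6 h region, beside 68.9% of all coding genes. Lrp8 and Lrp1 had 2 each at 0 h, when 8.76% of coding genes had at least 1. Lrp1, an endocytic receptor that clears protease and inhibitor complexes, had its top site inside the gene at chr10:127603884-127605578, at percentiles 99.6 and 99.7 of the 6 h lists and 30.4 and 71.7 of the 0 h lists. The top site of Lrp8, a related receptor, lay at chr4:107810576-107812049 and stood at percentile 99.9 of each 6 h list and at 70.3 and 93.1 of the 0 h lists. Of 8 matrix substrates 7 had a 6 h region, beside the same 68.9% of coding genes. Only Col4a1 also had one at 0 h, beside 8.76%, at another site than its highest at 6 h. The top-ranking 6 h sites were inside Col4a1, a basement membrane collagen, with a fold of 20.2 and 32.8, and 23139 bp from Hspg2, the perlecan gene, with 13.7 and 18.9 and a 0 h replicate 1 peak of 4.96. Vcan, the versican substrate of the ADAMTS enzymes, had 1 replicated region, with a fold of 5.08 and 7.10.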

How the data were processed

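RUNX1 ChIP-seq was sequenced single-end at 75 nt, per the labels, and the submitters' processing notes name Bowtie2 2.2.5, MACS2 and the mm10 build. MACS2's version and settings and any read filter are not given in the sources used here. The deposited lists, 1 per library, give each peak's fold enrichment over local background (a ratio), and its p-value and q-value as −log10, all the authors' values. Depth is not stated. A whole-number pileup and its background were solved from fold and −log10 p, taking fold as (pileup + 1)/(background + 1) and p as the upper Poisson tail, and all peaks were solved with a misfit of at most 0.005. The commonest background, 2.77 and 2.65 reads at 0 h and 2.76 and 2.13 at 6 h, is the genome-wide floor.

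Genes came from RefSeq (GRCm38.p6), the same primary assembly as mm10. Exons and introns were not separated. Motifs were searched in promoters only, since no genome sequence was used here. Coordinates count from 1, and percentiles are ranks of fold within a list. Peaks overlapped when they shared at least 1 bp. Libraries were compared by exact permutation tests (Python 3.11.15, scipy 1.17.1). Counting of regions per gene was tested on simulated peaks. Same-numbered replicates carry no label of a shared animal or day, so no block entered the main comparison. All 9 genes, and by rule their highest 6 h site, sites with a 0 h peak and sites within 1 kb of a known start, are named. From the further list the genes with a 0 h region and the 2 of highest rank per class are named. Timp3, Reck, Vcan and the inhibitors without a 6 h region were added after their values were seen. Some items are not reported here. Members and lists were chosen with earlier results of these data known.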

Additional observations from a re-analysis of the deposited data

How the results depend on the processing

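The direction of the 6 h minus 0 h difference in peak number at the proteases (43.5) and in their share per 1000 peaks (0.913) kept its direction under all alternatives run, but not its size. The peak difference was 23 within 10 kb, 14 in the gene body, 27.5 by the nearest-gene rule, 61 within 100 kb and 0.5 with lists of equal length. The share difference was 0.457 in the gene body, 1.51 within 100 kb, 0.527 with lists of equal length and 0.394 at a −log10 q of at least 20, and in the last of these and with equal lists the groups overlapped (exact permutation p = 1). Leaving out 1 library gave 34 to 53 peaks and 0.864 to 0.962 per 1000. With a replicate block the values were again 43.5 and 0.913 (exact sign-flip permutation p = 0.5, the smallest possible). The numbers 1 and 2 are not known to pair the libraries. Windows of 10 kb and of the gene body, and the nearest-gene rule, left 0 proteases and 0 regions replicated at 0 h. The replicated 6 h regions then numbered 15, 10 and 17, and in the gene body they touched 4 proteases. Lists of equal length left 1 protease and 1 region at 6 h, and that 1 overlapped a 0 h peak, or 100%. Requiring an overlap of 50% of both intervals took the share of 6 h regions with a 0 h peak to 0%. Without 0 h replicate 1, 3 proteases had a 0 h region, so both 0 h counts ranged from 1 to 3 over left-out libraries. The 6 h regions ranged from 32 to 55, the highest without 6 h replicate 1, the proteases with one from 8 to 9, and the share with a 0 h peak from 3.13%, without 0 h replicate 2, to 9.38%. It was 5.45% without 6 h replicate 1, 5.88% by the nearest-gene rule and 4% at a −log10 q of at least 20, or 1 of 25 regions. List length, and the reads a summit needed to be listed at 0 h, limit what can be said of absence at 0 h. Library depth is not stated.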
